A study of Arabidopsis thaliana with 12 samples.

Results

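The circadian clock and clock output genes described here are 6 of the 656 genes that the deposited tables list as changed in spaceflight. They were taken by name, and are *RVE1* (AT5G17300), *RVE2* (AT5G37260), *APRR9* (AT2G46790), *GI* (AT1G22770), *COR27* (AT5G42900) and AT4G33980, which the annotation names *COR28*. All 6 are among the 608 genes listed for leaf, and *APRR9* is the only one among the 65 listed for root. The tables hold only genes that had already passed the authors' thresholds in an organ. The leaf difference of the 6 genes, and the root difference of *APRR9*, are therefore descriptions of why they were listed. The other 5 genes are listed for leaf only, so their root values are not free of the listing, and the comparisons between organs use the same leaf libraries.

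The libraries are RNA-seq of leaves and roots of *Arabidopsis thaliana* ecotype Wassilewskija (WS), wild type in every group, at 11 days after germination. The 4 groups are spaceflight leaf, ground control leaf, spaceflight root and ground control root, with 3 libraries each. Spaceflight plants grew on vertical plates in the Veggie unit on the International Space Station, and ground control plants in a Veggie unit in an environment simulator chamber with a delay that is 48 h in the labels and differs in the methods. Both received constant LED light of 100 to 135 µmol per m2 per s and were fixed in RNAlater at harvest. Each library pools 3 plants, both organs of a plate were cut from the same plants, and the sources used here do not give the hour of harvest. The labels describe root tips and the methods whole dissected roots, and 1 label field exchanges leaf and root in 2 groups, so the sample titles were followed.

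The plant clock is a network of transcription factors that repress and activate each other in a daily cycle and that keeps running in constant light. *RVE1* and *RVE2* encode MYB-like factors related to the morning factors CCA1 and LHY. *APRR9* and its relatives *APRR7* and *APRR5* encode pseudo-response regulators, which repress *CCA1* and *LHY* one after another over the day. *GI* encodes a protein of the afternoon and evening that stabilises the photoreceptor ZEITLUPE and promotes flowering, and *COR27* and *COR28* are related genes that respond to cold and whose transcripts the clock regulates. Because transcripts of this kind change with the hour, their level in a sample fixed once is a level at that hour. With the hour of harvest not given, a difference between spaceflight and ground control cannot be told apart from a difference in that hour. Words such as spaceflight difference or response are used below for the comparison only.

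The values were taken as FPKM, fragment counts scaled to transcript length and library size, so levels of genes can be set side by side within a library. Between libraries, and between organs, a value also depends on the other RNA in the library. No further scaling between libraries was applied. The number of fragments behind them is unknown. The sum over the listed genes was 36999 to 59578 FPKM in spaceflight leaves, 35670 to 40970 in ground control leaves, 34087 to 38972 in spaceflight roots and 33943 to 37291 in ground control roots. The third spaceflight leaf was the highest of its group for 59.5% of the 656 listed genes. Of 22 leaf markers (light-harvesting and Rubisco genes) the tables list 3, none of them at 0 in any library. Their summed level was 6221 to 14152 FPKM in spaceflight leaves and 13678 to 17828 FPKM in ground control leaves, and 144 to 344 FPKM in spaceflight roots and 102 to 111 FPKM in ground control roots. Of 14 root markers 1 is listed, *BGLU21*, at 0.82 to 2.12 FPKM in spaceflight leaves, 0.34 to 0.65 FPKM in ground control leaves, 521 to 751 FPKM in spaceflight roots and 762 to 968 FPKM in ground control roots. The organs were therefore as the titles say. The 3 leaf markers are listed for root and not for leaf, so the root contrast had chosen them. That their sum did not overlap between spaceflight and ground control roots is therefore a description of that listing. The other leaf markers are not in the tables used here, and the part of leaf markers in the root results was not tested.

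In TAIR10.1, 5 of the genes lie at chr5:5690225-5692992 (*RVE1*, minus strand), chr5:14751344-14753088 (*RVE2*, minus strand), chr2:19232607-19235179 (*APRR9*, plus strand), chr1:8061751-8067790 (*GI*, plus strand) and chr4:16282281-16285229 (*COR28*, minus strand). The stretches before the transcription starts were read because the clock acts on its targets through short promoter motifs. In a window of 250 bases before to 50 after the start, the evening element AAAATATCT was found in 2.82% of 27443 promoters, in 6.02% of the 648 listed genes with a promoter and in 2 of these 5 genes. The CCA1-binding site AAAAATCT was found in 7.88% of all promoters, in 7.10% of the listed genes and in 2 of the 5. In the same order, the G-box CACGTG was found in 7.68%, 9.41% and 3 of the 5. The DRE core CCGAC, a cold-response motif, was found in 15.1%, 12.5% and 1 of the 5. Both strands were searched. No 2 of these motifs overlapped in these promoters, and a match is a run of letters and not a measured binding site. The sequences are the TAIR10.1 reference of the Columbia ecotype from RefSeq, not of WS, and capitals mark the motifs.
In *COR28* and *APRR9* the evening element lay after the start of transcription, at bases 32 to 40 and, on the minus strand, 27 to 35, and 30 bases around it are given (chr4:16285180-16285209, minus strand, and chr2:19232623-19232652, plus strand).
COR28 start region: agctccaaaaaAAAATATCTggctgatatt
APRR9 start region: ttctctgagaAGATATTTTcgtggttgtga
*APRR9* also held 2 G-boxes before the start (chr2:19232357-19232606, plus strand).
APRR9 promoter: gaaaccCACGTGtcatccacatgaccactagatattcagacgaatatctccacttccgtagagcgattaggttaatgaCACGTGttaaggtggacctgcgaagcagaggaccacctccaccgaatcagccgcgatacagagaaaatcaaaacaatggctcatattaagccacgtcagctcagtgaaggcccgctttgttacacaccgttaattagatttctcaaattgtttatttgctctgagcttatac
The *RVE2* stretch (chr5:14753089-14753338, minus strand) is shown for a CCA1-binding site directly followed by the DRE core, with a G-box further on.
RVE2 promoter: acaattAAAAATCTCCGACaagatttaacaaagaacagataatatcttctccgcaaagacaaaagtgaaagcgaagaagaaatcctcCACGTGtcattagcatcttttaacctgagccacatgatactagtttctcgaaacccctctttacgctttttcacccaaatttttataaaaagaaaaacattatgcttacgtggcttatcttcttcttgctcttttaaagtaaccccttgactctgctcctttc
*RVE1* held 1 G-box, at -111 to -106, *COR28* 1 CCA1-binding site, at -143 to -136, and none of these letters occurred in the window of *GI*.

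*RVE2*, also known as *CIRCADIAN 1*, had the highest level of the 6 genes in 11 of 12 libraries. In leaves it measured 165.43, 143.57 and 143.32 FPKM in spaceflight (151 ± 12.7, SD, n = 3) and 31.67, 30.38 and 18.99 FPKM in ground control (27.0 ± 6.98, SD, n = 3). The lowest spaceflight leaf stood far above the highest ground control leaf. In whole organs, fewer cells that express a gene and less of its RNA per cell cannot be told apart. In roots it measured 120.44, 96.3 and 69.49 FPKM in spaceflight (95.4 ± 25.5) and 63.71, 62.78 and 66.88 FPKM in ground control (64.5 ± 2.15). The root groups did not overlap either, although the lowest spaceflight root came close to the ground control roots. The 4 groups thus ran from spaceflight leaf, the highest, through spaceflight root and ground control root down to ground control leaf, with no overlap between neighbours.

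**Figure D1:**
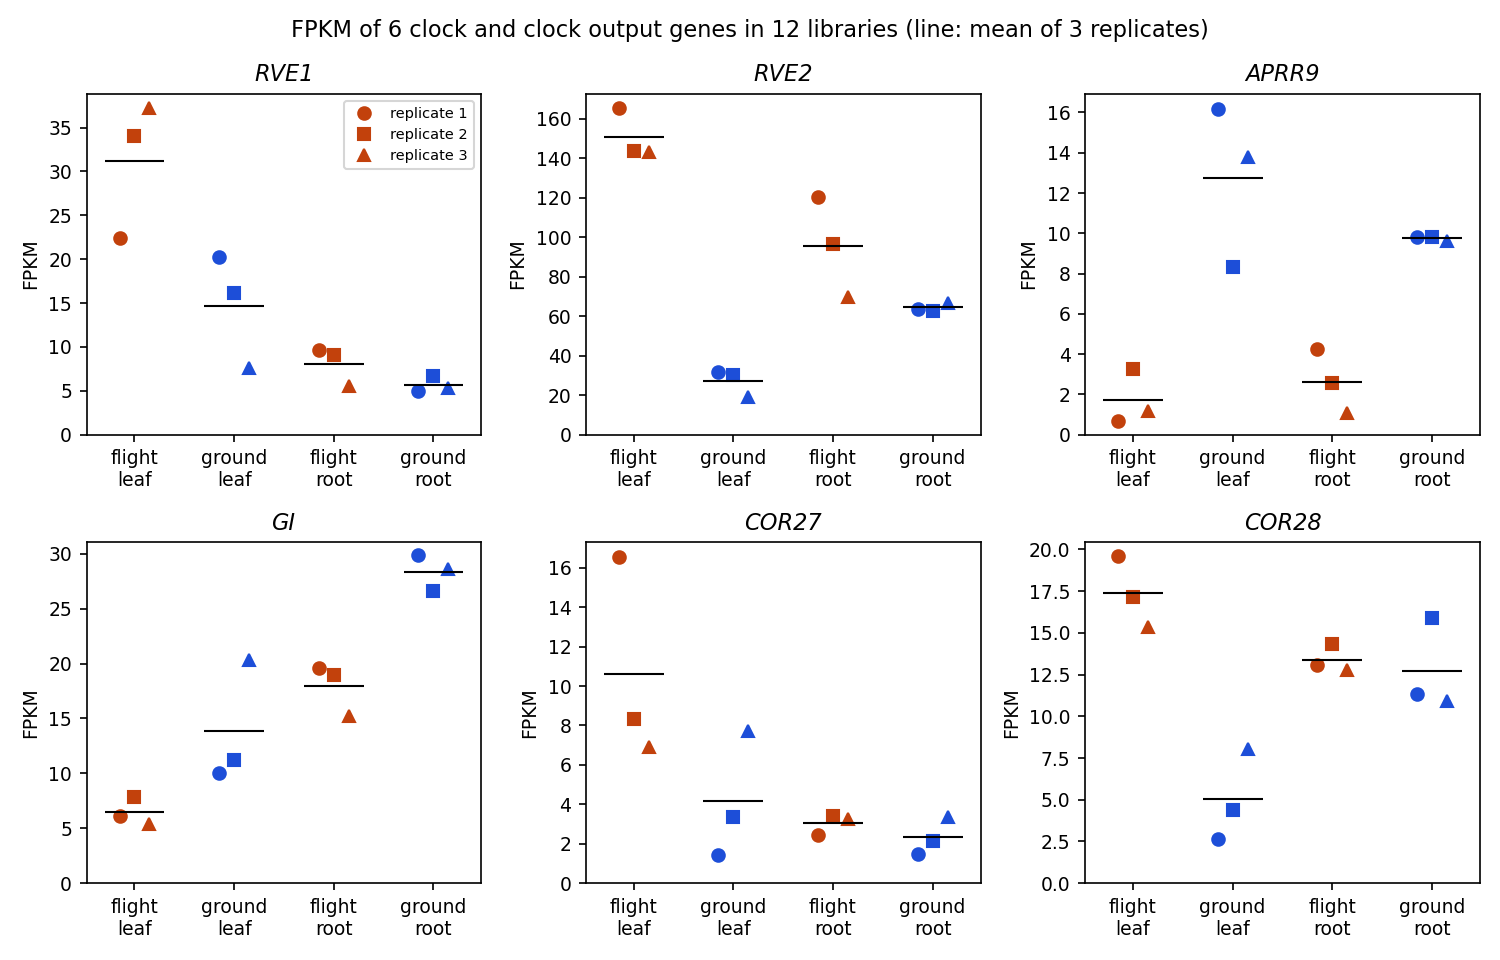
FPKM of the 6 genes (vertical axes, linear, each from 0) in spaceflight leaf, ground control leaf, spaceflight root and ground control root; points are libraries, with a symbol for each replicate number, and lines are means of 3. *RVE2* lay at 143.32 FPKM or more in spaceflight leaves and at 31.67 FPKM or less in ground control leaves, and *APRR9* was lower in spaceflight than in ground control in both organs.

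*RVE1*, which is known to promote auxin synthesis and seed dormancy, was the other gene of this pair and a leaf-predominant one. It measured 22.36, 33.99 and 37.27 FPKM in spaceflight leaves (31.2 ± 7.84) and 20.21, 16.12 and 7.63 FPKM in ground control leaves (14.7 ± 6.42). The leaf groups stood apart by a narrow margin, between the first library of each. In roots the level was 9.67, 9.06 and 5.49 FPKM in spaceflight (8.07 ± 2.26) and 4.98, 6.68 and 5.33 FPKM in ground control (5.66 ± 0.898), and the groups overlapped. The ratio of *RVE2* to *RVE1* was 3.85 to 7.40 in spaceflight leaves and 1.57 to 2.49 in ground control leaves, against 10.6 to 12.7 in spaceflight roots and 9.40 to 12.8 in ground control roots. The leaf groups did not overlap in this ratio and the root groups did. *RVE1* overlaps AT5G17305 on the opposite strand, and the sources differ on whether the libraries kept strand. Reads in the stretch that those 2 genes share may therefore not be told apart, and the length of that stretch was not read.

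*APRR9* was the gene with the lowest level in spaceflight leaves and the only one listed for both organs. It measured 0.70, 3.27 and 1.18 FPKM in spaceflight leaves (1.72 ± 1.37) and 16.17, 8.35 and 13.79 FPKM in ground control leaves (12.8 ± 4.01), a ratio of means of 0.134. In roots it measured 4.25, 2.57 and 1.1 FPKM in spaceflight (2.64 ± 1.58) and 9.82, 9.83 and 9.63 FPKM in ground control (9.76 ± 0.113), a ratio of 0.270. Every spaceflight library of either organ lay below every ground control library. Within a treatment the organs overlapped.

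*GI* was a root-predominant gene. It measured 6.12, 7.88 and 5.40 FPKM in spaceflight leaves (6.47 ± 1.28) and 10.04, 11.21 and 20.34 FPKM in ground control leaves (13.9 ± 5.64). In roots it measured 19.61, 18.96 and 15.24 FPKM in spaceflight (17.9 ± 2.36) and 29.85, 26.59 and 28.6 FPKM in ground control (28.3 ± 1.64). Spaceflight lay below ground control without overlap in both organs, and leaf lay below root without overlap in both treatments. The third ground control leaf, at 20.34 FPKM, stood above all 3 spaceflight roots.

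*COR27* and *COR28*, clock outputs whose products also act back on clock and flowering genes, had the lowest means of the 6 genes in ground control leaves. *COR27* measured 16.55, 8.34 and 6.92 FPKM in spaceflight leaves (10.6 ± 5.20) and 1.43, 3.38 and 7.70 FPKM in ground control leaves (4.17 ± 3.21). These leaf groups overlapped, since the third ground control leaf exceeded the third spaceflight leaf. In roots *COR27* measured 2.42, 3.42 and 3.28 FPKM in spaceflight (3.04 ± 0.541) and 1.5, 2.15 and 3.37 FPKM in ground control (2.34 ± 0.949), with overlap. *COR28* measured 19.6, 17.17 and 15.35 FPKM in spaceflight leaves (17.4 ± 2.13) and 2.67, 4.41 and 8.05 FPKM in ground control leaves (5.04 ± 2.75), without overlap. Its roots, at 13.07, 14.31 and 12.78 FPKM in spaceflight (13.4 ± 0.813) and 11.35, 15.91 and 10.91 FPKM in ground control (12.7 ± 2.77), overlapped. Ground control leaf was thus the 1 group of *COR28* that stood below all others. The ratio of *COR28* to *COR27* was 1.18 to 2.22 in spaceflight leaves and 1.05 to 1.87 in ground control leaves, and 3.90 to 5.40 in spaceflight roots and 3.24 to 7.57 in ground control roots, so it separated the organs and not the treatments.

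The spaceflight difference was then fitted with limma on log2(FPKM + 1) in each organ, a scale that understates the change of low genes. A gene was called where the Benjamini-Hochberg adjusted p was under 0.05 and the difference 2-fold or more. In leaf, 4 of the 6 genes were called higher, where 58.1% of the 608 listed genes were, and 1 was called lower, where 16.4% were. Since the leaf contrast had listed these genes, nothing is read from these counts. The log2 differences were 2.47 for *RVE2* (SE 0.30), 1.70 for *COR28* (SE 0.35), 1.27 for *COR27* (SE 0.45) and 1.11 for *RVE1* (SE 0.37), and -2.41 for *APRR9* (SE 0.38). *GI*, at -0.94 (SE 0.33, limma adjusted p = 0.0163), had an adjusted p under the threshold but less than a 2-fold difference on this scale. Its ratio of mean FPKM, spaceflight over ground control leaf, was 0.466. The median of the 6 was 1.19, beside 1.1 over all 608 genes. Of these genes, 3 crossed the threshold when 1 library was left out. *RVE1* was 0.73 without the third ground control leaf (adjusted p = 0.0856) and 0.97 without the third spaceflight leaf (adjusted p = 0.0509). *COR27* was 0.82 without the first ground control leaf (adjusted p = 0.111) and 0.93 without the first spaceflight leaf (adjusted p = 0.0718), and neither gene was then called. *GI* was called without the first or second ground control leaf or the second spaceflight leaf, at -1.13, -1.05 and -1.08. Neither *RVE1* (0.92) nor *COR27* (0.77) was called when the pseudocount was 5, and *GI* (-1.03) was when it was 0.1.

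In root, 1 of the 6 genes was called, where 3.51% of the 656 genes fitted were, and that gene was *APRR9*, which the root contrast had listed. Its log2 difference was -1.66 (SE 0.32, limma adjusted p = 0.0378), and it was not called without any 1 of the 3 ground control roots or without the second spaceflight root (adjusted p = 0.0712 to 0.134), nor with a pseudocount of 0.1 (-2.04, adjusted p = 0.0516) or 5 (-0.97, under 2-fold). None of the 5 genes listed for leaf only was called in root, where 0% of the 591 such genes were. At an unadjusted p under 0.05 limma had 144 of those 591 genes. *GI* differed by -0.64 in root (SE 0.12, limma adjusted p = 0.0378, and 0.0270 to 0.138 over its alternatives), which is less than 2-fold. *RVE2* differed by 0.52 (95% interval 0.04 to 1.01, adjusted p = 0.136) and *RVE1* by 0.42 (-0.10 to 0.94, adjusted p = 0.249), neither past the threshold. Without the third spaceflight root these were 0.73 (adjusted p = 0.0247) and 0.65 (adjusted p = 0.0360), under 2-fold, and without the first *RVE2* was 0.34 and *RVE1* 0.29. *COR27* differed by 0.30 (-0.24 to 0.84) and *COR28* by 0.09 (-0.29 to 0.46). The median of the 6 genes in root was 0.19, beside 0.05 over all 656 genes.

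**Figure D2:**
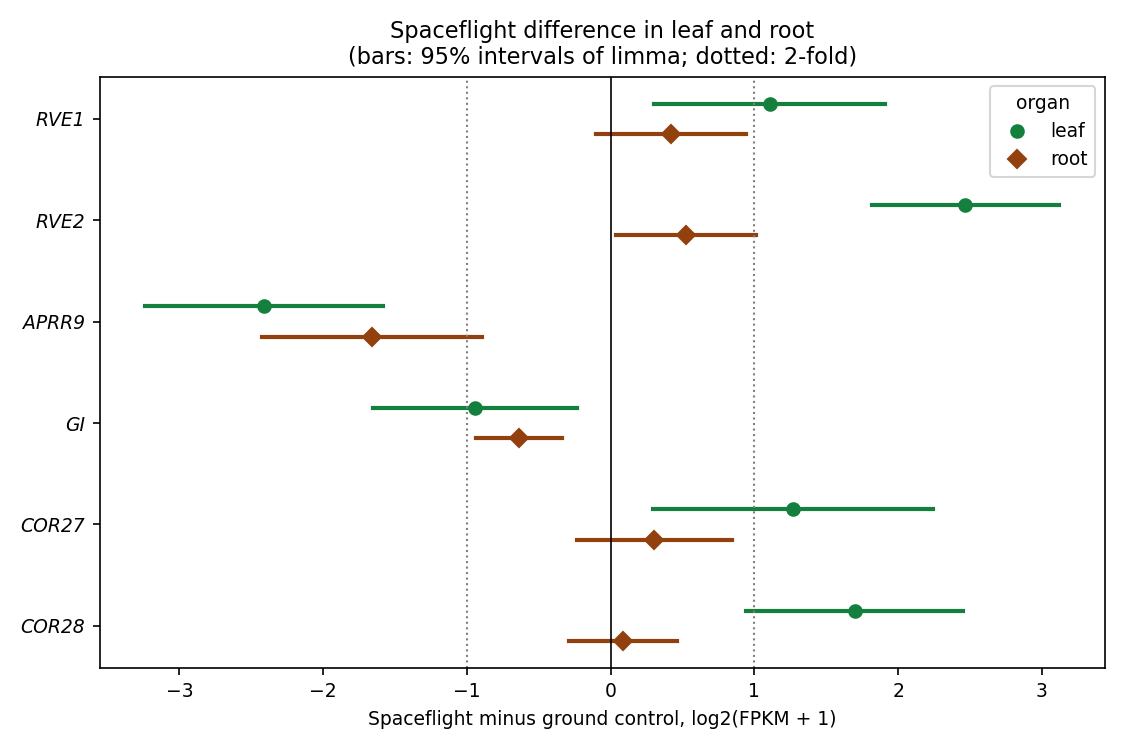
Spaceflight minus ground control difference in log2(FPKM + 1) (horizontal axis) of the 6 genes, in leaf and in root; bars are 95% intervals from limma and dotted lines mark a 2-fold difference. The sign was the same in both organs for each gene, although *COR28* in root lay near 0 and changed sign without the third ground control root, and the point for *RVE2* was at 2.47 in leaf and 0.52 in root.

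Whether leaf and root differed in their response was tested as the leaf difference minus the root difference. This contrast passed for *RVE2*, at 1.94 (SE 0.34, limma adjusted p = 0.00077), and for *COR28*, at 1.61 (SE 0.39, limma adjusted p = 0.0047). It did not pass for *COR27*, at 0.97 (-0.27 to 2.2), *RVE1*, at 0.69 (-0.29 to 1.66), *GI*, at -0.30 (-1.05 to 0.44), or *APRR9*, at -0.75 (-1.87 to 0.37). Thus 2 of the 6 genes passed, where 73.5% of all 656 genes did, a background that is high because most genes were listed for their leaf difference. *COR27* passed without the third ground control leaf, at 1.44 (limma adjusted p = 0.0254).

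The organs themselves were compared within each treatment. In spaceflight, *RVE1* (1.83, SE 0.32) and *COR27* (1.44, SE 0.41) were higher in leaf than in root by the same call, where 34% of the 656 genes were, and *GI* (-1.35, SE 0.25) was lower, where 33.8% were. In ground control, *RVE1* (1.14, SE 0.32) was higher in leaf than in root, where 24.2% were, and *RVE2* (-1.26, SE 0.24), *COR28* (-1.26, SE 0.28) and *GI* (-1.04, SE 0.25) were lower, where 45.1% were. *RVE1* and *GI* kept their side of the comparison in both treatments. *RVE2* was lower in leaf than in root on the ground and, in spaceflight, higher in leaf by 0.69 (SE 0.24, limma adjusted p = 0.0161), under 2-fold. Without the third spaceflight root this spaceflight difference was 0.48 (limma adjusted p = 0.089). *COR28* was lower in leaf on the ground and differed by 0.35 (-0.25 to 0.95) in spaceflight. Without the first ground control leaf, *GI*, *COR28* and *RVE1* were under 2-fold between the ground control organs (-0.86, -0.95 and 0.88), as was *GI* without the second (-0.93). With a pseudocount of 5 the same 3 genes were under 2-fold there (-0.86, -0.84 and 0.83), as was *COR27* between the spaceflight organs (0.91).

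**Figure D3:**
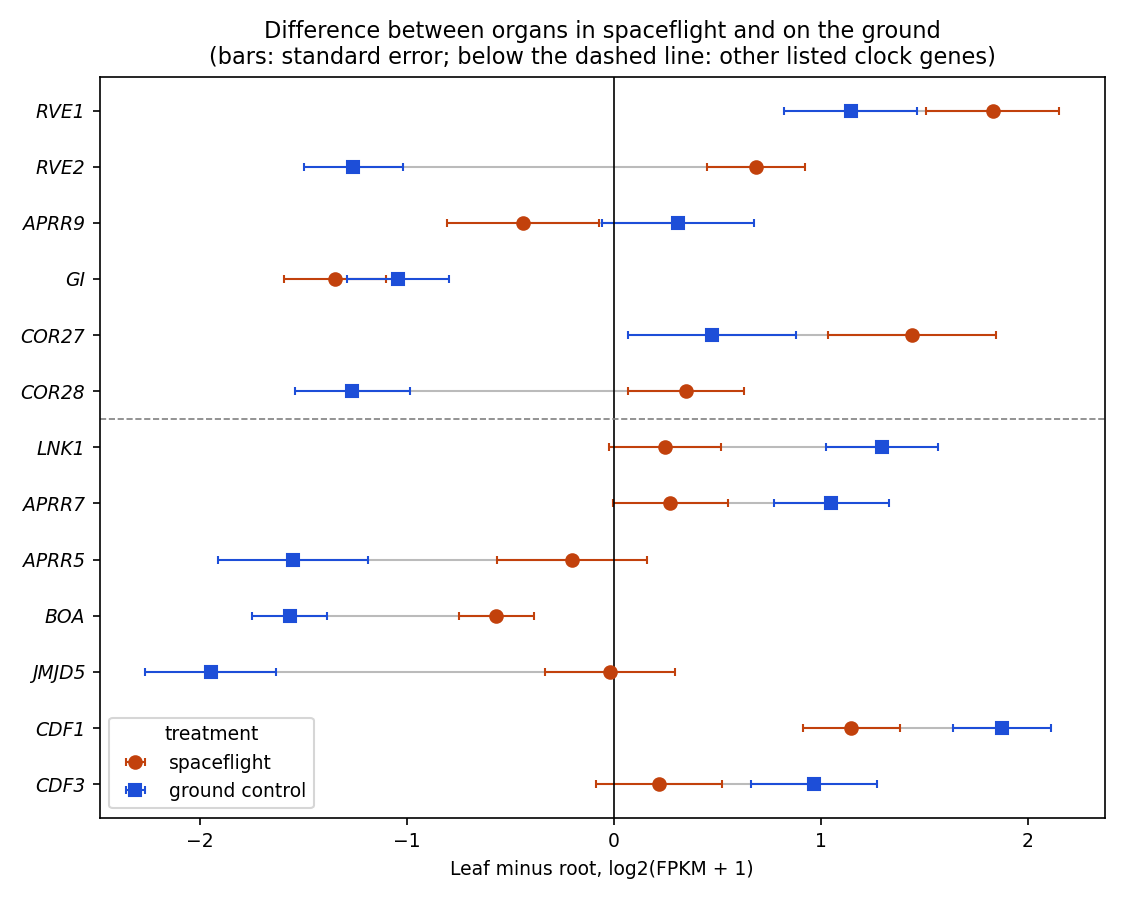
Leaf minus root difference in log2(FPKM + 1) (horizontal axis) in spaceflight and in ground control for the 6 genes and, below the dashed line, 7 other listed clock genes; bars are standard errors from limma. *RVE2* was at 0.69 in spaceflight and at -1.26 in ground control, and *JMJD5* at -0.02 in spaceflight and at -1.95 in ground control.

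The wider clock was read from lists of 34 clock components and 16 clock output genes. The leaf table lists 9 of the components and 4 of the outputs, and the root table lists *APRR9* only. Genes of these lists outside the tables, *CCA1*, *LHY* and *TOC1* among them, were not analysed here. Beside the 6 genes these were *JMJD5*, *APRR5*, *BOA*, *LNK1*, *APRR7*, *CDF1* and *CDF3*. Of the 13, 7 were called higher in spaceflight leaf and 5 lower, beside the 58.1% and 16.4% of all genes listed by the same contrast. Of 15 cold-regulated genes, a list without *COR27* and *COR28*, 0 are in the tables used here, which need not hold every gene that the authors called. Of all 27443 protein-coding genes with a promoter window, 648 are listed for either organ. The lists were also chosen with earlier results known. Nothing is therefore read from how many clock or cold genes are listed.

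Among the genes called higher was *JMJD5*, a histone demethylase of the clock. It measured 52.3, 24.34 and 18.95 FPKM in spaceflight leaves and 6.48, 5.43 and 10.7 FPKM in ground control leaves. *APRR5* measured 13.65, 11.01 and 7.73 FPKM in spaceflight leaves and 1.71, 4.33 and 8.74 FPKM in ground control leaves, with overlap, and *BOA*, a relative of the evening complex factor LUX, 11.54, 9.01 and 11.38 FPKM in spaceflight leaves and 3.52, 3.99 and 4.00 FPKM in ground control leaves. The pseudo-response regulators therefore did not move together in leaf, as *APRR9* and *APRR7* were lower and *APRR5* higher. *APRR7* measured 11.22, 20.0 and 17.8 FPKM in spaceflight leaves and 23.69, 36.36 and 51.61 FPKM in ground control leaves. *LNK1*, which encodes a coactivator that works with RVE factors, measured 8.51, 21.06 and 19.22 FPKM in spaceflight leaves and 53.13, 44.94 and 47.31 FPKM in ground control leaves. The flowering repressors *CDF1* and *CDF3* averaged 11.6 ± 2.16 and 15.9 ± 3.95 FPKM in spaceflight leaves and 26.5 ± 1.41 and 38.8 ± 8.03 FPKM in ground control leaves. The limma log2 differences of the 7 genes in leaf were 1.86, 1.15 and 1.26 for *JMJD5*, *APRR5* and *BOA*, and -1.61, -1.11, -1.14 and -1.25 for *LNK1*, *APRR7*, *CDF1* and *CDF3*.

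In root none of these 7 was called. *LNK1* differed there by -0.56 (limma adjusted p = 0.0390), under 2-fold, and the others lay between -0.49 and 0.26. The leaf minus root contrast of the response passed for *JMJD5* (1.93), *APRR5* (1.35), *BOA* (1.00) and *LNK1* (-1.05), 4 of the 7, beside 73.5% of all 656 genes. On the ground, *JMJD5*, *APRR5* and *BOA* were lower in leaf than in root, and *LNK1*, *APRR7* and *CDF1* higher. In spaceflight the absolute leaf to root difference was smaller in 7 of these 7 genes, with a median of 0.25 in spaceflight and 1.55 in ground control. It was smaller in 2 of the 6 main genes, *RVE2* and *COR28*, and in 57.8% of all 656 listed genes. The ground control leaves enter both the listing and this comparison, so the counts are a description.

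**Figure D4:**
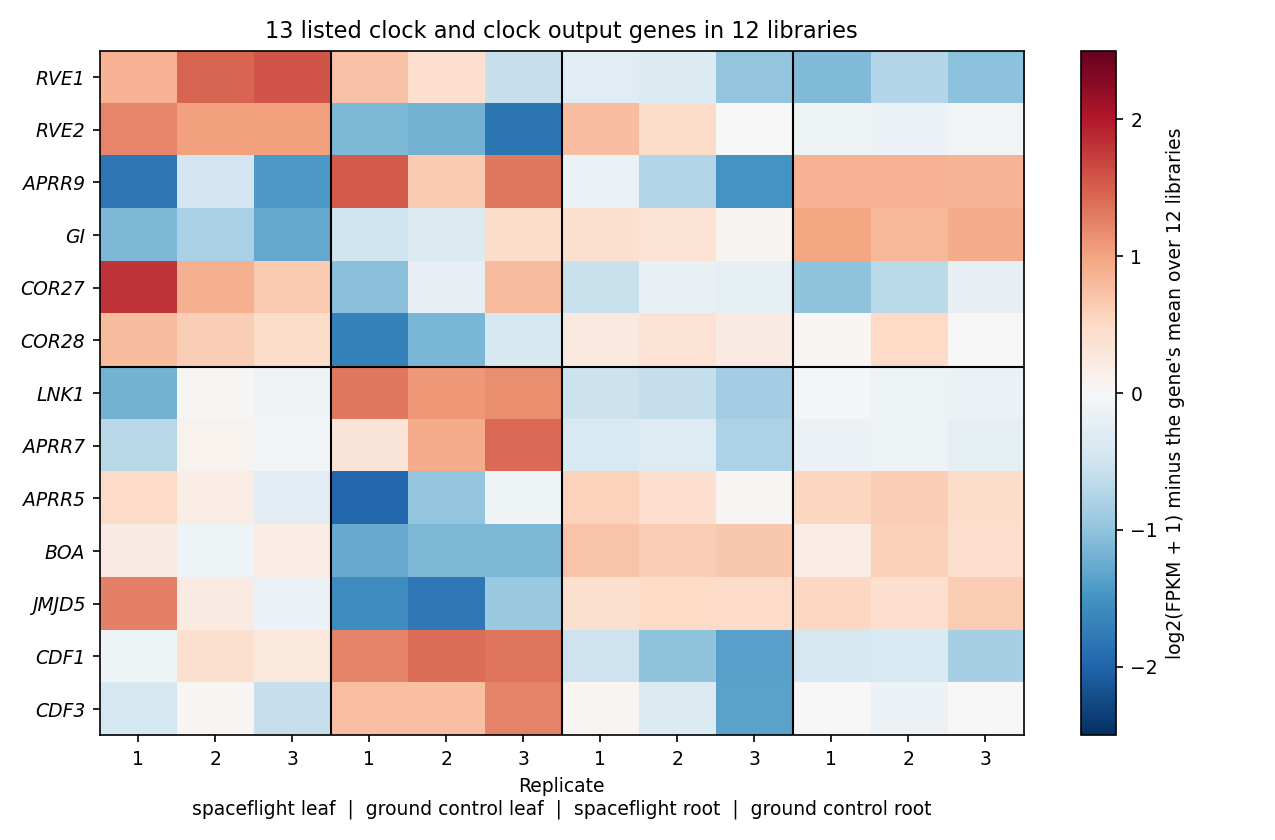
log2(FPKM + 1) of 13 listed clock and clock output genes (rows, with the 6 main genes above the line) in 12 libraries (columns, replicates 1 to 3 of each group), as the difference from the gene's mean; red is above and blue below that mean. The third ground control leaf departs from the other ground control leaves in *RVE1*, *RVE2*, *GI* and *COR27*, at 7.63, 18.99, 20.34 and 7.70 FPKM.

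The replicates of a group differed more in ground control leaf than in ground control root. The coefficient of variation of the 6 genes had a median of 22.4% in spaceflight leaves, 42.2% in ground control leaves, 22.3% in spaceflight roots and 10.8% in ground control roots. Over the listed genes with a mean of at least 1 FPKM in the group it was 29.8%, 25.4%, 15.3% and 10.3% in the same groups. The third ground control leaf was the highest of its group for *GI*, *COR27* and *COR28* and the lowest for *RVE1* and *RVE2*. It was the highest for 8 of the 13 clock genes, or 61.5%, and for 29.1% of all listed genes. In spaceflight roots the third library was the lowest for 5 of the 6 genes and for 10 of the 13 clock genes, or 76.9%, beside 55.2% of all listed genes. These replicate differences were as wide as some of the spaceflight differences, as with *COR27*.

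Across the libraries some of the 6 genes followed each other. Pearson's r of log2(FPKM + 1) between *GI* and *RVE1* was -0.929 over the 12 libraries, -0.919 within the 6 leaf libraries and -0.429 within the 6 root libraries. Between *APRR9* and *RVE2* it was -0.783, -0.933 and -0.41 in the same order, between *RVE2* and *COR28* 0.793, 0.829 and 0.182, between *COR27* and *COR28* 0.473, 0.919 and 0.0307, and between *GI* and *APRR9* 0.566, 0.841 and 0.978. All but the last of these pairs were weaker in root than in leaf, but this did not hold for every pair of the 6 genes. Between *RVE1* and *RVE2* r was 0.845 in leaf and 0.9 in root. The pairs of *GI* and *COR27*, *COR28* and *RVE1*, and *RVE1* and *COR27* were also stronger in root, and the remaining pairs weaker. These points share treatment and organ and are given without a test. All 6 genes were listed by the leaf contrast, which the leaf correlations share, so nothing is read from their strength in leaf against root. The order of the 6 levels was the same in all 3 spaceflight leaves (*RVE2*, *RVE1*, *COR28*, *COR27*, *GI*, *APRR9*) and in all 3 ground control roots (*RVE2*, *GI*, *COR28*, *APRR9*, *RVE1*, *COR27*). In the third ground control leaf *GI* led and *RVE1* came last.

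For each gene the other listed genes most alike over the 12 libraries were taken by Pearson's r. Closest to *RVE2* were *BT2* (0.933), a BTB and TAZ domain protein gene, and AT5G65207 (0.931), and closest to *RVE1* were AT3G26510 (0.973) and AT5G54170 (0.945). *APRR9* was closest to *MBF1C* (0.929), a transcriptional coactivator of the heat response, and to AT5G54470 (0.913), the B-box gene *BBX29*. *GI* was closest to the tonoplast aquaporin gene *TIP2-2* (0.962) and to AT1G76240 (0.941). *COR28* was closest to the dormancy-associated genes AT2G33830 (0.945) and *DYL1* (0.920), and *COR27* to AT5G62360 (0.912) and AT1G75190 (0.856). All 656 genes had been listed for a spaceflight difference, which these correlations share.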

How the data were processed

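RNA-seq of 12 libraries was processed by the authors, who per the labels used FastQC, Trimmomatic, STAR on TAIR10 and RSEM (versions not given in the sources used here). Their deposited tables, 1 per organ, give a value per library and gene that is not named in the header and was taken as FPKM, because the authors' mean CPM divided by it increased with gene length (Spearman's rho 0.793, 0.793, 0.752 and 0.761 in spaceflight leaf, ground control leaf, spaceflight root and ground control root). The tables also hold the authors' own log2 fold changes and p-values, which were not used, and list only genes past their thresholds after a filter of more than 5 CPM in at least 3 libraries. Total counts were not used, so depth is unknown and counting error cannot be given.

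The deposited values were fitted as log2(FPKM + 1) with limma 3.58.1 in R 4.3.3 and adjusted by Benjamini-Hochberg over 608 genes (leaf contrast) or 656 genes (all others). The organ contrasts and the difference of responses used all 12 libraries with 1 estimate of the spread. Those fits treated leaf and root of a plate as independent, and only the replicate block alternative took leaf minus root within each plate. P-values of the contrasts within an organ measure the spread between plates. Those of the other contrasts measure the spread between libraries within the groups. The limma step was tested on simulated data. Those values were drawn independently for each library and the changed genes at random. The listing of genes and the shared plates were thus not part of that test. Alternatives were pseudocounts of 0.1 and 5, a filter on low values, a mean-dependent prior, a replicate block, other gene sets and leaving out each replicate. Other steps used Python 3.11.15, pandas 2.3.3, numpy 2.4.6 and matplotlib 3.10.9.

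The members and lists were chosen with earlier results of these data known. All members, every listed gene of the clock and cold lists, and the 2 listed genes most alike to each member were named. Leaf and root replicates of 1 number were taken as 1 plate, since the methods state that both organs came from the same plants; the deviations of such pairs from their group means correlated at 0.0385, 0.0863 and -0.0179 in spaceflight and 0.0778, 0.450 and 0.310 in ground control. The numbers of spaceflight and ground control share no plants. Positions and promoters are from RefSeq TAIR10.1, which has a promoter for 648 of the 656 listed genes; those of *COR27* are not reported here.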

Additional observations from a re-analysis of the deposited data

Results flagged for a closer look

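The contrast of the leaf and root responses passed its test for 2 of the 6 genes, where 73.5% of all 656 listed genes passed. For *RVE2* the leaf difference exceeded the root difference by 1.94 on the log2(FPKM + 1) scale (limma adjusted p = 0.00077), with 0.000732 to 0.00277 over its alternatives, and each spaceflight library lay above each ground control library in both organs. For *COR28* it exceeded it by 1.61 (limma adjusted p = 0.0047), with 0.00117 to 0.0146 over its alternatives, and the groups overlapped in root only. The leaf term of both contrasts is the one that listed these genes, and neither gene is in the root table, so the contrast is not independent of the listing.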

How the results depend on the processing

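Of 445 alternative values of the single genes, 419 kept direction and call, 20 lost the call, 5 gained it and 1 changed sign, which was *COR28* in root at -0.00797 without ground control root 3 (0.24 without ground control root 2, not called in any case). Many of the 419 could not move an estimate, only its adjusted p. These were the filter, the mean-dependent prior, the replicate block and the other gene sets. In the organ contrasts, leaving out a library of the other treatment also left the estimate as it was. With a pseudocount of 5, 3 members in place of 5 and 272 genes in place of 453 were called in leaf, 0 members in place of 1 and 10 genes in place of 23 in root, and 1 member in place of 4 between the ground control organs. A larger pseudocount shrinks differences of low genes by construction. With a pseudocount of 0.1, 0 members were called in root, and fitted over the root table alone 36 genes were, with fewer genes tested. Leaving out 1 replicate gave 4 to 6 called members and 365 to 474 called genes in leaf, 0 to 1 members and 0 to 44 genes in root (0 without ground control root 1 or 3, 44 without spaceflight root 3), and 1 to 4 members between the ground control organs (1 without ground control leaf 1). The cause of these changes was not tested. With the replicate block no call of a member changed, and 454 genes were called in leaf and 21 in root. Across treatments the numbers name no shared plants, and same-numbered deviations correlated at 0.165, 0.162 and -0.0107 in leaf and 0.0405, 0.0754 and 0.131 in root. Depth is unknown, so the counting error of low values, such as those of *APRR9* in spaceflight leaves (0.70 to 3.27 FPKM), cannot be given.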
